A study of Mus musculus with 18 samples.

Results

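The 9 genes of secreted factors of adipose tissue described here are Adipoq, Lep, Retn, Rarres2, Nrg4, Metrnl, Fgf21, Apln and Nampt. They were chosen by name as genes of adipokines and adipose-secreted hormones, with earlier results of these data known. Each was found as 1 row of the gene count table, which gave 9 of 54347 rows. All 9 passed the filter on low counts, which kept 18728 genes. Polyadenylated RNA was measured by RNA-seq in 3 adipose tissues of 6 mice, which gave 18 libraries in 6 groups of 3. Brown fat was taken from between the shoulder blades (interscapular, iBAT), and white fat from the inguinal (iWAT) and epididymal (eWAT) depots. Of the mice, 3 were wild type (wt) and 3 were knockouts (ko) in which CRISPR/Cas9 had removed exon 1 of the long noncoding RNA gene Gm15551 from every cell of the body. All were 12 weeks old and on the C57BL/6N background, and each mouse gave all 3 tissues. The authors' methods give chow for these mice, while their results mention animals on high-fat and control diets for the adipose tissue comparison.

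Adipose tissue is an endocrine organ, and adipocytes release hormones that report on energy stores and act on the brain, liver, muscle and vessels. Adiponectin (Adipoq) and leptin (Lep) are the classical adipocyte hormones, the former tied to insulin sensitivity and the latter to satiety and to the size of the fat store. Brown fat, which burns fuel to make heat, also secretes factors of its own, and Nrg4, Metrnl and Fgf21 have been studied as such signals.

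The genes lie on 8 chromosomes of GRCm38, and all are annotated as protein-coding in GENCODE M21. The hormones adiponectin, leptin and resistin are encoded by Adipoq (ENSMUSG00000022878.5, chr16:23146536-23158028, plus strand), Lep (ENSMUSG00000059201.12, chr6:29060220-29073877, plus strand) and Retn (ENSMUSG00000012705.16, chr8:3655770-3660110, plus strand). Rarres2 (ENSMUSG00000009281.6, chr6:48569696-48572789, minus strand) encodes chemerin, a chemoattractant for immune cells that also acts on adipocytes. Nrg4 (ENSMUSG00000032311.17, chr9:55220222-55326844, minus strand) encodes a neuregulin of the EGF family, and Metrnl (ENSMUSG00000039208.15, chr11:121701544-121716306, plus strand) encodes meteorin-like. Fgf21 (ENSMUSG00000030827.5, chr7:45613886-45615490, minus strand) encodes an endocrine fibroblast growth factor made chiefly in liver. Apln (ENSMUSG00000037010.7, chrX:48025146-48034853, minus strand) encodes the peptide ligand of the apelin receptor. Nampt (ENSMUSG00000020572.8, chr12:32819545-32853349, plus strand) encodes the rate-limiting enzyme of NAD salvage, which is also released from cells and is then known as visfatin. The exons of Rarres2 share 892 bases with Lrrc61 on the opposite strand, and those of Nrg4 share 368 bases with Fbxo22. Whether counting used strand is not given in the sources used here, so part of these genes' counts could belong to their neighbours.

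The sequence before the start site is shown for 4 of the genes, 3 that were lower in brown than in white fat (Lep, Adipoq and Retn) and 1 that was higher (Nampt). Each is the 249 bases upstream of the RefSeq start in GRCm38.p6, read 5′ to 3′ on the plus strand, the strand of all 4 genes. They lie at chr6:29059971-29060219 (Lep), chr16:23146286-23146534 (Adipoq), chr8:3655520-3655768 (Retn) and chr12:32820085-32820333 (Nampt). The Nampt window falls inside the GENCODE span of the gene, and 0 bases of any window were exonic in their own gene.
Lep: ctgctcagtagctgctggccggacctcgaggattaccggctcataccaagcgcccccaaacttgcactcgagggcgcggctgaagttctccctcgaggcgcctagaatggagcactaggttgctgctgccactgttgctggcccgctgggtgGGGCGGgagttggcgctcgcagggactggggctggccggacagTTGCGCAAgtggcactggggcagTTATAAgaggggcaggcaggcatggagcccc
Adipoq: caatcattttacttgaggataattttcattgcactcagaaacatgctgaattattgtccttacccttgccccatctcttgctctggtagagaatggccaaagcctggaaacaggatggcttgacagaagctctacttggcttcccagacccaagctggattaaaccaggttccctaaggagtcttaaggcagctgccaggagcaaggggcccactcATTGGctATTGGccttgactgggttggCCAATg
Retn: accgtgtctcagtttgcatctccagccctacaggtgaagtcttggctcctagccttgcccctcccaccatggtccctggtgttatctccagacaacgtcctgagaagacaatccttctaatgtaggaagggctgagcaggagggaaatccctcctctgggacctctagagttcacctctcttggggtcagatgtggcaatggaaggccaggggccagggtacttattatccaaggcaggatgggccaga
Nampt: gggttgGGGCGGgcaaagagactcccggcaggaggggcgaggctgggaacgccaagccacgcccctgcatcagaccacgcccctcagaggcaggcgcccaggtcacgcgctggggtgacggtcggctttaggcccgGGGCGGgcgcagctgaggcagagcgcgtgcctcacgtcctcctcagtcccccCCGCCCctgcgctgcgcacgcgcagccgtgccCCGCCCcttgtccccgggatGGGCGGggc
Capitals mark matches, on either strand, to a TATA box (TATAA), a C/EBP motif (TTNNGCAA), a CCAAT box (CCAAT), a GC box (GGGCGG) or an E-box (CACGTG). The Lep window held a TATA box that matched on both strands and began 31 bases before the RefSeq start, a C/EBP match TTGCGCAA and 1 GC box. The Adipoq window held 3 CCAAT boxes and 0 CpG dinucleotides, and that of Retn held none of the 5 motifs and 2 CpG. The Nampt window held 5 GC boxes and 26 CpG, with a GC content of 75.5%, compared with a median of 52.2% GC and 6 CpG over 32851 RefSeq windows of the same length. Of those windows, 22.8% held a TATA box, 9.55% the C/EBP motif, 33.8% a CCAAT box, 32.6% a GC box and 6.00% an E-box. RefSeq windows were found for 8 of the 9 genes, all but Rarres2. A match is a run of letters and no evidence of binding.

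Total estimated counts per library were 14997901 to 34389586. Expression of the targeted gene was checked first, and Gm15551 had 40 to 316 counts in the wt libraries and 0 to 4 in the ko libraries. Levels are given in CPM, the count scaled to a common library total with TMM factors. The summed level of 5 brown adipocyte markers (Ucp1, Cidea, Dio2, Elovl3 and Cox8b) was 6868 to 12046 CPM in iBAT, but 22.6 to 298 CPM in iWAT and only 3.27 to 12.3 CPM in eWAT, which follows the tissue labels. Markers of other tissues were high in 4 libraries. Epididymis markers summed to 5052 CPM in eWAT ko replicate 3 and to at most 21.4 CPM elsewhere. Lymph node markers summed to 688 CPM in iWAT wt replicate 3 and 294 CPM in iWAT ko replicate 2, against at most 13.5 CPM elsewhere, and skeletal muscle markers to 4108 CPM in iWAT ko replicate 1. The summed level of 5 adipocyte markers (Plin1, Fabp4, Lipe, Pnpla2 and Cidec) was 7770 CPM in iWAT wt replicate 3, 11554 CPM in iWAT ko replicate 2, 9904 CPM in eWAT ko replicate 3 and 14437 CPM in eWAT wt replicate 1. It was 19874 to 22248 CPM in the other libraries.

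To ask how hormone expression differs between brown and white fat, the tissues were compared over both genotypes. Brown fat had less RNA of the classical adipocyte hormones and more of Nrg4 and Nampt. Against iWAT, 8 of the 9 genes differed in the quasi-likelihood test of edgeR, 2 higher and 6 lower in iBAT, where 54.3% of all genes tested passed (24% higher and 30.3% lower). Against eWAT, the count was again 2 higher and 6 lower, where 54.6% of all genes passed (24.4% higher and 30.2% lower). Fgf21 passed in neither. The median log2 fold change of the 9 genes was -1.53 against iWAT and -1.08 against eWAT, beside -0.14 and -0.17 over all genes tested. Both comparisons use the same iBAT libraries. The libraries did not overlap for 5 of the 9 genes between iBAT and iWAT, where that held for 34.6% of all genes, and for 7 of the 9 between iBAT and eWAT, where it held for 37.3%. Without the 4 libraries with RNA of other tissues, both counts of genes that passed were 8 as well. In the wt libraries alone, where Fgf21 was not tested, 5 passed against iWAT and 6 against eWAT. Adipoq was lost in both, Nrg4 and Apln were lost against iWAT and Metrnl was lost against eWAT. The wt log2 fold changes of the lost calls were -0.90 and -1.08 for Adipoq, 1.11 for Nrg4, -1.56 for Apln and -0.36 for Metrnl, beside -0.93, -1.08, 1.13, -1.53 and -1.07 over both genotypes, so that the value of Metrnl alone moved by over 1.5 times. In bulk tissue, fewer cells of a type and less RNA per cell cannot be told apart.

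**Figure D1:**
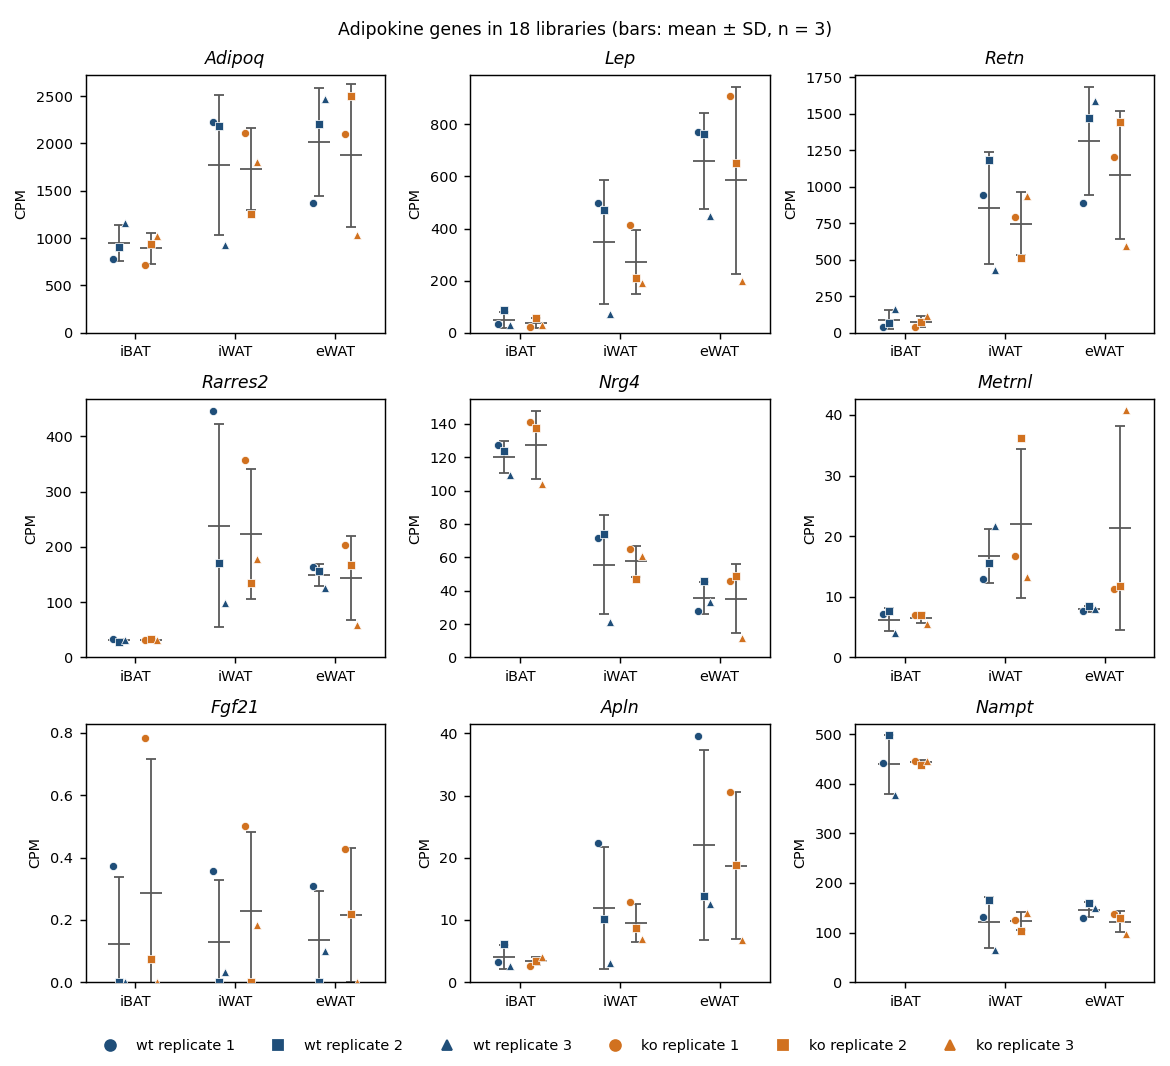
Each panel plots the CPM of 1 gene in the 18 libraries, by tissue on the horizontal axis, with wt in blue, ko in orange and the marker shape giving the replicate. Bars are mean ± SD of 3 libraries. Retn and Rarres2 sat lower in all iBAT libraries than in any white library, Nrg4 and Nampt sat higher, and wt and ko points were interleaved except for Metrnl in eWAT.

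Adipoq had the highest level per kb of exon of the 9 genes in every tissue. Its CPM ran from 712 to 1161 with a median of 924 in iBAT, from 922 to 2223 with a median of 1960 in iWAT, and from 1033 to 2497 with a median of 2150 in eWAT. The lowest white libraries were iWAT wt replicate 3 and eWAT ko replicate 3, both low in adipocyte markers, and they overlapped the iBAT range. Against iWAT, iBAT had less Adipoq, with a log2 fold change of -0.93 ± 0.25 (SE; adjusted p = 0.00525 with edgeR) and in 5 of 6 mice. Against eWAT it was -1.08 ± 0.25 (adjusted p = 0.00177), lower in 6 of 6 mice. Relative to the adipocyte markers of its own library the overlap was gone, with 34.8 to 55.6 CPM of Adipoq per 1000 CPM of the 5 markers in iBAT, against 87.1 to 119 in iWAT and 94.9 to 117 in eWAT. On this scale, 24.8% of all genes did not overlap between iBAT and iWAT, and 30.5% between iBAT and eWAT.

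Lep and Retn had the largest log2 differences between iBAT and eWAT of the 9 genes. Lep ranged from 21.8 to 86.1 CPM (median 33.3) in iBAT, from 73.3 to 499 CPM (median 311) in iWAT and from 198 to 907 CPM (median 708) in eWAT. The iBAT and eWAT ranges were apart, while iWAT wt replicate 3, at 73.3 CPM, fell below the iBAT maximum. The log2 fold change in iBAT was -2.84 ± 0.48 against iWAT (adjusted p = 9.70e-05) and -3.86 ± 0.50 against eWAT (adjusted p = 5.41e-06), and iBAT was lower in 6 of 6 mice in both. Within iBAT, the wt and ko replicate 2 mice had the highest levels, 86.1 and 57.2 CPM.

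Retn, which encodes resistin, a cysteine-rich hormone of mouse adipocytes, ranged from 37.7 to 161 CPM (median 73.0) in iBAT, 434 to 1184 CPM (median 865) in iWAT and 595 to 1586 CPM (median 1328) in eWAT. No iBAT library reached the lowest white library. At log2 fold changes of -3.28 ± 0.38 against iWAT (adjusted p = 2.35e-06) and -3.86 ± 0.39 against eWAT (adjusted p = 3.75e-07), iBAT levels were 9.71-fold and 14.5-fold lower. Per 1000 CPM of adipocyte markers the 3 tissues formed separate ranges, from 1.88 to 7.71 in iBAT, then 39.3 to 55.8 in iWAT, and 57.7 to 71.8 in eWAT. Between iWAT and eWAT, 3.27% of all genes were separate on this scale. The CPM of Retn in those 2 tissues overlapped, and their difference did not pass the test, also when libraries were scaled to the adipocyte markers (-0.47, adjusted p = 0.395).

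Rarres2 was steady in brown fat and varied between mice in iWAT. All 6 iBAT libraries lay between 28.6 and 34.04 CPM, with a mean of 31.9 ± 1.93 (SD, n = 6). In iWAT it was 446, 170 and 99.3 CPM in wt replicates 1 to 3 and 357, 135 and 177 CPM in ko replicates 1 to 3, and in eWAT it ranged from 57.9 to 204 CPM. Every iBAT library was below every white library, and the 2 highest iWAT values came from the replicate 1 mice of both genotypes. The log2 fold change in iBAT was -2.85 ± 0.35 against iWAT (adjusted p = 4.39e-06) and -2.19 ± 0.35 against eWAT (adjusted p = 4.58e-05). Lrrc61, which shares exon sequence with it, had 28.7 ± 4.08, 20.7 ± 2.22 and 20.3 ± 3.94 CPM in the 3 tissues in that order (SD, n = 6), and was thus highest in the tissue where Rarres2 was lowest.

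Apln and Metrnl were lower in iBAT at smaller levels. Apln ranged from 2.65 to 6.16 CPM (median 3.33) in iBAT, 3.10 to 22.4 CPM (median 9.42) in iWAT and 6.83 to 39.7 CPM (median 16.3) in eWAT, and the replicate 1 mice were the highest in both white tissues. The iBAT range was separate from eWAT only, with log2 fold changes of -1.53 ± 0.45 against iWAT (adjusted p = 0.00813) and -2.46 ± 0.46 against eWAT (adjusted p = 2.30e-04). Metrnl ranged from 4.01 to 7.58 CPM in iBAT, from 12.9 to 36.1 CPM in iWAT and from 7.61 to 40.7 CPM in eWAT. All iBAT libraries were below all white libraries, although the iBAT maximum and the eWAT minimum lay side by side. Its log2 fold change was -1.57 ± 0.36 against iWAT (adjusted p = 0.00151) and -1.07 ± 0.36 against eWAT (adjusted p = 0.0198). The second call was the least firm of the brown and white calls. It was lost when mice were blocked (-0.97, adjusted p = 0.0502), with scaling to adipocyte markers (-1.56, adjusted p = 0.0554), without iBAT ko replicate 3 (-0.95, adjusted p = 0.0520) and without eWAT ko replicate 3 (-0.58, adjusted p = 0.0524), and kept without the 4 libraries together (-0.58, adjusted p = 0.00845).

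Nampt and Nrg4 were the 2 genes higher in brown fat. Nampt ranged from 378 to 498 CPM in iBAT (mean 441 ± 38.3; SD, n = 6), from 64.4 to 166 CPM in iWAT and from 97.3 to 159 CPM in eWAT, so that the highest white library stood far below the lowest iBAT library. Its log2 fold change was 1.86 ± 0.18 against iWAT (adjusted p = 2.67e-07) and 1.73 ± 0.18 against eWAT (adjusted p = 4.37e-07), higher in 6 of 6 mice in both. Nrg4 ranged from 104 to 141 CPM in iBAT, from 21.3 to 74.0 CPM in iWAT and from 11.6 to 48.8 CPM in eWAT. In CPM it was higher in all iBAT libraries, with 1.13 ± 0.30 against iWAT (adjusted p = 0.00495) and 1.80 ± 0.31 against eWAT (adjusted p = 1.15e-04). Without the TMM factors the iBAT and iWAT ranges would overlap. Nrg4 had 2205 of 26976473 counts in iWAT wt replicate 1 and 1617 of 21451689 in iBAT ko replicate 3. Fbxo22, which shares exon sequence with Nrg4, had 40.2 ± 1.30, 41.5 ± 5.28 and 57.4 ± 10.4 CPM in iBAT, iWAT and eWAT in turn (SD, n = 6). It was highest in eWAT, where the mean of Nrg4 was lowest, and its iBAT and iWAT values were within their spread.

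**Figure D2:**
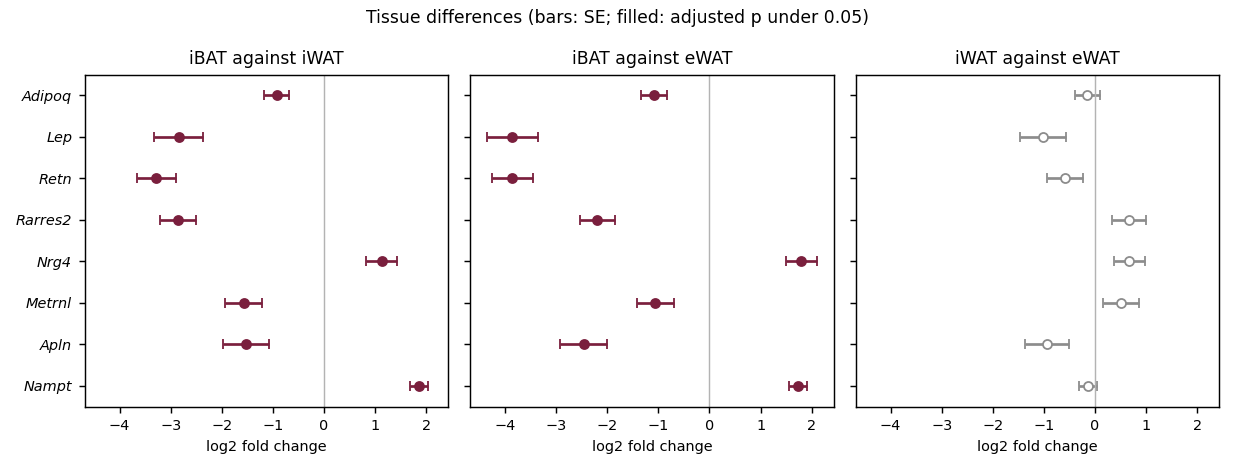
Points are log2 fold changes between tissues from the model with tissue and genotype terms, bars are 1 SE, and filled points passed an adjusted p of 0.05. Fgf21 is left out for its low counts. Left of 0 lie 6 genes and right of 0 lie 2 in both brown and white comparisons, and no point is filled in the comparison of iWAT with eWAT, where Lep and Apln lie left and Rarres2, Nrg4 and Metrnl right.

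Between the 2 white tissues, none of the 9 genes passed the edgeR test, where 10.2% of all genes did (5.7% higher and 4.5% lower in iWAT), none by DESeq2, and 3 had an unadjusted p under 0.05. These were Lep, with a log2 fold change in iWAT of -1.02 ± 0.45 (adjusted p = 0.161), Apln, with -0.93 ± 0.43 (adjusted p = 0.183), and Nrg4, with 0.67 ± 0.30 (adjusted p = 0.174). Lep was lower in iWAT than in eWAT in 6 of 6 mice, with log2 differences of -2.61 to -0.05. The libraries of the 2 tissues overlapped for all 9 genes, as against 4.62% of all genes that did not overlap. The median log2 fold change was -0.13, beside 0.01 over all genes. Without the 4 libraries with RNA of other tissues, Nrg4 was higher in iWAT (0.79, adjusted p = 0.00724), and likewise when libraries were scaled to the adipocyte markers (0.80, adjusted p = 0.0123), a scaling that moved the median of all genes by 0.16. Per 1000 CPM of those markers, Nrg4 was 5.20 to 6.88 in iBAT, then 2.74 to 4.05 in iWAT, and 1.17 to 2.28 in eWAT, with no overlap. Without eWAT ko replicate 3 alone, Metrnl passed (1.003, adjusted p = 0.0154).

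**Figure D3:**
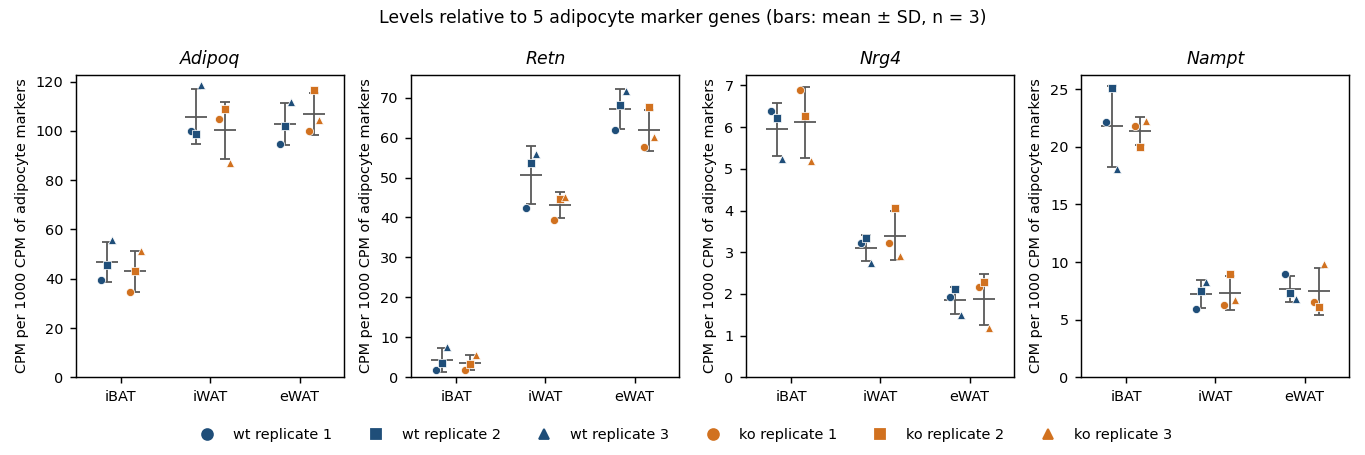
The vertical axis gives the CPM of a gene per 1000 CPM of 5 adipocyte markers in the same library, by tissue, with wt in blue and ko in orange. Bars are mean ± SD of 3 libraries. Retn rises from iBAT over iWAT to eWAT and Nrg4 falls in the same order without overlap, while Adipoq and Nampt separate brown from white fat and overlap between the white tissues.

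Levels of different genes were compared per kb of merged exons. In iBAT the order was Adipoq at 667 ± 117 CPM per kb (SD, n = 6), Nampt at 87.4 ± 7.57, Retn at 52.4 ± 30.0, Nrg4 at 20.4 ± 2.44, Lep at 12.9 ± 7.22, Rarres2 at 12.0 ± 0.725, Metrnl at 4.02 ± 0.863 and Apln at 1.17 ± 0.416. Lep and Rarres2 were within their spread of each other. In eWAT the order was Adipoq at 1408 ± 438 CPM per kb, Retn at 760 ± 244, Lep at 186 ± 77.0, Rarres2 at 55.0 ± 18.8, Nampt at 26.5 ± 4.20, Metrnl at 9.25 ± 8.13, Apln at 6.46 ± 3.93 and Nrg4 at 5.84 ± 2.35, with the last 3 within their spread. In iWAT, Lep at 92.3 ± 52.0 and Rarres2 at 86.9 ± 52.0 CPM per kb were not apart. Nrg4 has 13 annotated transcripts and 20 merged exons, so its value per kb depends on which of them are used.

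Fgf21 was near the limit of detection. A count of 0 allows up to 3 counts, or 0.0728 to 0.235 CPM by library. The wt replicate 1 mouse had 6, 11 and 7 counts in iBAT, iWAT and eWAT, and the ko replicate 1 mouse had 10, 13 and 10. Fgf21 passed the filter on low counts only through the 3 libraries of the ko replicate 1 mouse. The wt replicate 2 mouse had 0 in all 3 tissues and the wt replicate 3 mouse had 0, 1 and 2. The ko replicate 2 mouse had 1, 0 and 9 counts and the ko replicate 3 mouse had 0, 5 and 0. Counts above 3 in all 3 tissues were thus found in the replicate 1 mice of both genotypes alone. With so few counts no fold is read from Fgf21, and a difference between tissues or genotypes was not detectable at this depth (adjusted p of 0.932 to 1 in the edgeR tests).

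**Figure D4:**
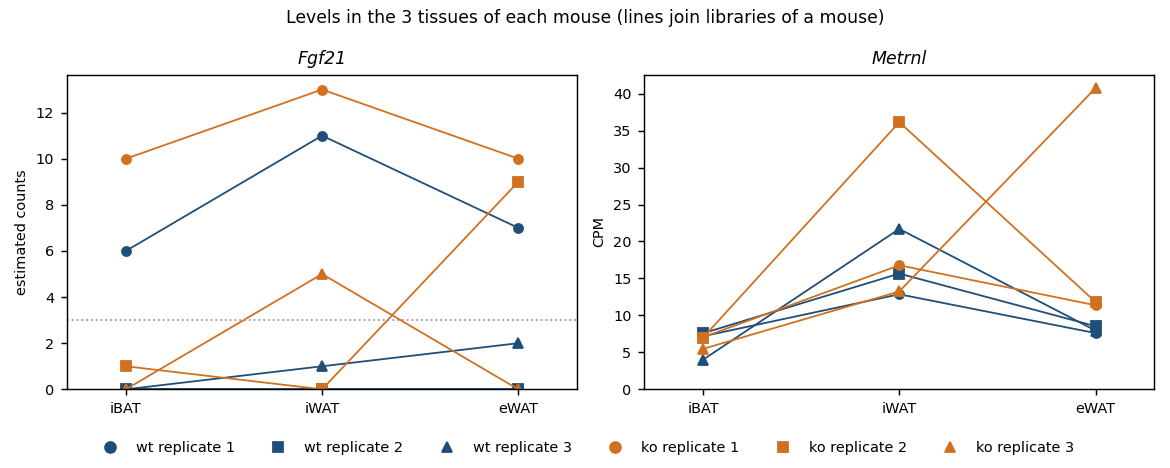
The left panel plots estimated counts of Fgf21 and the right panel the CPM of Metrnl in the 3 tissues of each mouse, with lines joining the libraries of a mouse, wt in blue and ko in orange. The dotted line is the floor of 3 counts. Only the replicate 1 mice exceed 3 counts of Fgf21 in every tissue, and Metrnl peaks at 36.1 CPM in iWAT of ko replicate 2 and at 40.7 CPM in eWAT of ko replicate 3.

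To ask whether loss of Gm15551 altered these hormones, ko and wt mice were compared in each tissue and across tissues. The comparison across tissues counts the 3 libraries of a mouse as independent, although each genotype has only 3 mice. None of the 9 genes passed the edgeR test, across tissues (0.00534% of all genes called), in iBAT (0%), in iWAT (0%) or in eWAT (0.00534%). The interaction of genotype with tissue called none either, and 0 of all genes by edgeR and by DESeq2, with 264 genes at an unadjusted p under 0.05. Without adjustment, 0.05 was passed by 411 genes across tissues, 238 in iBAT, 415 in iWAT and 814 in eWAT, and DESeq2 called 4, 13, 4 and 10 genes and none of the 9. Across tissues, the log2 fold change in ko was -0.08 ± 0.20 for Adipoq, -0.33 ± 0.36 for Lep, -0.24 ± 0.29 for Retn, -0.04 ± 0.27 for Rarres2, 0.04 ± 0.25 for Nrg4, -0.28 ± 0.35 for Apln and -0.07 ± 0.14 for Nampt (SE; adjusted p near 1 each). The SEs within 1 tissue were larger, up to 0.68 on the log2 scale for Apln in iBAT among the 8 genes other than Fgf21. In simulated counts, 62% of 2-fold genotype changes were recovered across tissues and 27% in iWAT. Nampt had 444 ± 4.54 CPM in ko and 439 ± 60.2 CPM in wt iBAT (SD, n = 3). Lep had 36.6 ± 18.4 CPM in ko and 49.99 ± 31.5 CPM in wt iBAT, and 271 ± 122 CPM in ko and 348 ± 238 CPM in wt iWAT. Leaving out the 4 libraries with RNA of other tissues leaves ko replicate 3 as the lone ko library of iWAT, beside wt replicates 1 and 2. The log2 fold change in iWAT was then -1.35 for Lep and -1.25 for Apln, compared with -0.36 and -0.33 in all libraries. These values carry no replicate check of the ko side, since the fit assumes that the lone library varies like the other groups.

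Metrnl had the lowest genotype p of the 9 genes. In eWAT it had 7.61, 8.54 and 7.95 CPM in wt replicates 1 to 3 and 11.4, 11.8 and 40.7 CPM in ko replicates 1 to 3. All ko libraries were above all wt libraries, a separation in either direction that 5.25% of all genes showed in eWAT. The log2 fold change was 1.40 ± 0.47 (adjusted p = 1 with edgeR), among the 814 genes under 0.05 before adjustment, and 0.53 without ko replicate 3, the library with epididymis markers. Across tissues it was 0.62 ± 0.29, among the 411 such genes, with an adjusted p near 1, and it was 0.32 without eWAT ko replicate 3 and 0.20 without the 4 libraries, where iWAT has 1 ko library. In iWAT, Metrnl had 12.9, 15.7 and 21.7 CPM in wt and 16.8, 36.1 and 13.2 CPM in ko, and its 2 highest values stood in the libraries with lymph node markers, wt replicate 3 and ko replicate 2. The part of the carried-along tissues in these values was not tested.

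**Figure D5:**
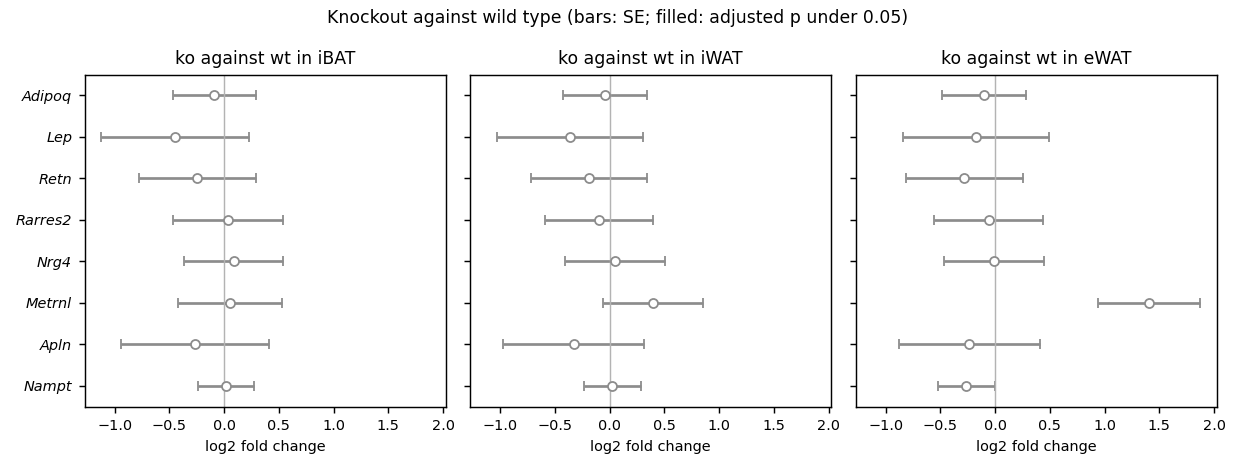
Points are log2 fold changes of ko against wt in each tissue from the model with 1 mean per group, and bars are 1 SE. No point passed an adjusted p of 0.05, so none is filled. Fgf21, with few counts, is left out, and among the other 8 genes SEs range from 0.26 for Nampt to 0.68 for Apln in iBAT, and Metrnl in eWAT lies farthest from 0 at 1.40.

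Receptors for these hormones were measured in the same tissues, with 13 genes listed. In iBAT, 3 were higher and 4 lower than in iWAT, and again 3 higher and 4 lower than in eWAT, with median log2 fold changes of 0.06 and -0.38. These 7 of 13 in each comparison stand near the 54.3% and 54.6% of all genes that passed. Both adiponectin receptors were higher in brown fat, Adipor1 by 0.83 ± 0.07 against iWAT and Adipor2 by 0.87 ± 0.21 against eWAT. Erbb4, a receptor for Nrg4, was higher by 1.59 ± 0.37 against iWAT and 3.71 ± 0.42 against eWAT, and was the 1 receptor that also differed between the white tissues, by 2.13 ± 0.40 in iWAT. Its level was low, 5.70 ± 1.40 CPM in iBAT and 0.436 ± 0.204 CPM in eWAT (SD, n = 6). The leptin receptor gene Lepr was lower in iBAT by -3.93 ± 0.72 against iWAT and -2.43 ± 0.68 against eWAT, and the chemerin receptor gene Cmklr1 by -3.87 ± 0.55 and -3.50 ± 0.54. Macrophage markers (Adgre1, Cd68, Csf1r, Itgam and Mrc1) summed to 27.2 to 64.0 CPM in iBAT and to 65.1 to 580 CPM in the white tissues, and the part of macrophages in the receptor values was not tested.

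Of 19 genes related in sequence to the 9, 12 passed the filter. In iBAT, 2 were higher and 7 lower than in iWAT, and 1 was higher and 8 lower than in eWAT, where 30.3% and 30.2% of all genes were lower. The resistin relative Retnla, a product of alternatively activated macrophages and adipose tissue, was lower by -3.34 ± 0.62 against iWAT and -4.34 ± 0.63 against eWAT. Of the adiponectin relatives, C1qtnf7 was lower by -3.18 ± 0.44 and -3.92 ± 0.45, and C1qtnf12 was higher by 0.81 ± 0.19 and 0.59 ± 0.19. C1qtnf4 was higher than in iWAT by 2.25 ± 0.60. Between the white tissues C1qtnf3 was lower in iWAT by -1.56 ± 0.47, at a mean level under 1 CPM in both.

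Among 17 measured genes of 20 other secreted factors, the majority also was lower in brown fat, with 12 lower and 2 higher against iWAT and 9 lower and 3 higher against eWAT. Of all genes, 30.3% and 30.2% were lower. Median log2 fold changes were -2.46 and -2.53, beside -0.14 and -0.17 over all genes. The list was chosen with earlier results of these data known, so the medians are a description only. Adipocyte progenitor markers (Pdgfra, Dpp4, Pi16, Cd34 and Ly6a) summed to 103 to 146 CPM in the iBAT libraries, 270 to 912 CPM in those of iWAT and 211 to 289 CPM in those of eWAT. Like the macrophage markers they were lowest in iBAT, and the part of either cell type in these values was not tested. Agt, which encodes angiotensinogen, had 399 ± 117 CPM in eWAT, 15.7 ± 8.28 CPM in iWAT and 2.63 ± 2.38 CPM in iBAT (SD, n = 6), and was lower in iBAT than in eWAT by -7.24 ± 0.59 and in iWAT than in eWAT by -4.65 ± 0.51. Lcn2, which encodes lipocalin 2, was lower by -4.05 ± 1.23 and -5.31 ± 1.29, and the chemokine gene Ccl2 was lower than in iWAT by -3.46 ± 0.52. Vegfa, the angiogenic growth factor, was higher in iBAT with 722 ± 57.2 CPM, against 326 ± 119 CPM in iWAT. Bmp8b, a batokine gene, had 1.69 ± 0.61 CPM in iBAT and at most 0.054 CPM on average in a white tissue, which is below the floor of 3 counts. Cxcl14 was higher in iBAT than in eWAT by 1.89 ± 0.49. In iWAT against eWAT, Cxcl14 was higher by 2.85 ± 0.50 and Fst, the gene of the activin antagonist follistatin, by 1.48 ± 0.26, and Adm, which encodes adrenomedullin, was lower by -0.72 ± 0.19.

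Adiponectin is folded and hydroxylated in the endoplasmic reticulum before release. Of 8 genes for these steps, 3 were higher and 2 lower in iBAT than in iWAT, and 5 were higher and 3 lower than in eWAT, where 54.3% and 54.6% of all genes passed in either direction. P4hb, which encodes protein disulfide isomerase, had 328 ± 37.6 CPM in eWAT, 287 ± 38.1 CPM in iWAT and 107 ± 10.0 CPM in iBAT (SD, n = 6), lower by -1.42 ± 0.11 and -1.62 ± 0.11. P4ha1, its prolyl hydroxylase partner, was higher by 0.99 ± 0.38 and 1.62 ± 0.38, and the oxidase gene Ero1a by 0.52 ± 0.09 against iWAT. Gstk1 was higher than in eWAT by 0.97 ± 0.20. The lysyl hydroxylase gene Plod3 was lower than in iWAT by -0.57 ± 0.17, and Plod2 was lower than in eWAT by -0.89 ± 0.37.

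Around Nampt, 9 other genes of NAD metabolism were examined. In iBAT, 4 were higher and 3 lower than in iWAT, and 4 higher and 2 lower than in eWAT, beside 54.3% and 54.6% of all genes that passed. Naprt, which starts the parallel route from nicotinic acid, was higher by 1.32 ± 0.18 and 1.83 ± 0.18, and Nmnat1, the nuclear enzyme of the step after Nampt, by 1.27 ± 0.17 and 1.47 ± 0.17. Nnmt, which methylates nicotinamide and so removes the substrate of Nampt, was lower by -2.27 ± 0.23 and -2.75 ± 0.24, with 22.9 ± 4.46 CPM in iBAT and 152 ± 39.6 CPM in eWAT (SD, n = 6). Qprt was lower than in iWAT by -2.31 ± 0.57 and Nmnat2 was lower than in eWAT by -1.51 ± 0.40. Of 8 transcription factor genes of adipocytes, 3 were higher and 1 lower in iBAT in both comparisons, a share no larger than that over all genes. Ppara was higher by 3.97 ± 0.44 and 5.30 ± 0.48, Cebpb by 2.32 ± 0.29 and 3.20 ± 0.30, and Cebpd was lower by -1.72 ± 0.26 and -1.73 ± 0.26. No gene of these 3 groups of enzymes and factors differed between the white tissues, and none of the listed genes differed between ko and wt in edgeR.

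Genes whose log2 CPM was most like that of each hormone were read over the 18 libraries, as a description, since libraries of a tissue and of a mouse are not independent. Adipoq was most like the carbonic anhydrase gene Car3 (Pearson r = 0.974, n = 18) and remained so after the mean of each tissue was removed (r = 0.967). Lep was most like Rtn4rl1 (r = 0.981), Retn like the transferrin gene Trf and Hoxc8 (r = 0.990 each), Rarres2 like Srpx2 (r = 0.971) and Apln like Abca8b (r = 0.947). Nampt was most like the mitochondrial prohibitin gene Phb (r = 0.991) and, with tissue means removed, like the citrate cycle gene Sucla2 (r = 0.962). Nrg4 was most like Paqr9 and Rtn4 (r = 0.982 each). Metrnl was most like Pdia3 (r = 0.932) and Sdf2l1 (r = 0.925), both genes of the endoplasmic reticulum, and with tissue means removed like Ndrg4 (r = 0.941).

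Among the 9 genes themselves, Lep and Apln had r = 0.936 over the 18 libraries, Lep and Retn 0.902, and Retn and Nampt -0.822. With tissue means removed, Adipoq and Retn had r = 0.853 and Lep and Apln 0.865. Nampt and Adipoq turned from -0.527 over all libraries to 0.740 with tissue means removed. Metrnl had a negative r with each of the other genes once tissue means were removed, among them -0.675 with Adipoq. Of the eWAT libraries, ko replicate 3 was lowest in Adipoq and in adipocyte markers and highest in Metrnl, and the part of that library in these values was not tested.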

How the data were processed

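RNA-seq libraries of polyadenylated RNA from 3 adipose tissues of 3 wt and 3 ko mice were analysed. The authors filtered reads with cutadapt, quantified them with salmon against GENCODE M22 (GRCm38) or its combination with RNAcentral, and deposited whole-number estimated counts per gene. Which reference, strand setting and step from transcripts to genes were used for this table is not given in the sources used here. Salmon divides shared reads by a model, so overlapping genes carry some uncertainty. Groups and mice were taken from the labels.

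For testing, edgeR 4.0.16 (R 4.3.3) was run on the counts with its quasi-likelihood functions, after filterByExpr and TMM scaling. Adjustment was by Benjamini-Hochberg over 18728 genes, with a threshold of 0.05. Tissue contrasts and the genotype effect across tissues came from an additive model of tissue and genotype, and genotype effects within tissues and the interaction from group means. Neither model had a mouse term, so the libraries of a mouse were treated as independent. The SE was found by dividing the log2 fold change by the root of its F statistic. The models were tested on simulated counts with independent libraries. Between iBAT and iWAT, 54% of 2-fold and 82% of 4-fold changes were recovered. For ko against wt, the shares were 62% and 94% across tissues and 27% and 74% in iWAT. Tissues pair by mouse, since the labels carry a mouse identifier that is shared by the 3 tissues of an animal. Deviations from group means correlated with r of -0.165 to 0.326 over 18 same-mouse pairs, 7 of them over 0.1.

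The members and gene lists were chosen with earlier results of these data known. From each list, at most 2 called genes per direction with the largest change were named per tissue contrast. For each of the 9 genes, the 2 with the highest Pearson correlation of log2 CPM (prior count 2) were found, with and without tissue means, and some of these are named. Libraries held 14997901 to 34389586 counts, and limits from counts cover counting error only, since PCR reads are not independent molecules. Positions came from GENCODE M21 and upstream sequences from RefSeq (GRCm38.p6). Alternatives were DESeq2 1.42.0 and its size factors, no filter, blocks by mouse or replicate number, counts summed per mouse, wt libraries only, leaving out each library, leaving out 4 libraries with RNA of other tissues, and, added after seeing the data, scaling to 5 adipocyte markers.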

Additional observations from a re-analysis of the deposited data

Results flagged for a closer look

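Metrnl in eWAT ko replicate 3 stood at 40.7 CPM, far from the other eWAT libraries, which ran from 7.61 to 11.8 CPM. The gap to the next library was 0.873 of the range, above Dixon's critical value for 6 libraries. Chance flags about 1 in 20 groups, or 1.35 of the 27 groups examined (9 genes in 3 tissues), and 1 was flagged. That library also held 5052 CPM of epididymis markers and 9904 CPM of adipocyte markers, and the part of either in the Metrnl value was not tested.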

How the results depend on the processing

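The 8 calls against iWAT and the 8 against eWAT held with the size factors of DESeq2, with no filter on low counts, with the DESeq2 test and without the 4 libraries with RNA of other tissues. The precision is limited by groups of 3 libraries, by 4 libraries low in adipocyte markers and by few counts for Fgf21. The low libraries include eWAT wt replicate 1 and not iWAT ko replicate 1, and so are a different set from those with RNA of other tissues. No preparation batch is named in the labels.

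With wt libraries only, where Fgf21 did not pass the filter and was not tested, 5 of the 9 genes passed between iBAT and iWAT. Of all genes, 6595 passed, down from 10164. Calls over all genes fell to 6574 between iBAT and eWAT, from 10220, and to 247 between iWAT and eWAT, from 1911, with fewer samples in each. With scaling to adipocyte markers the last 2 counts were 6641 and 1154, and 1 of the 9 genes (Nrg4) passed between iWAT and eWAT. Without the 4 libraries that count was also 1. The block by mouse ended the call of Metrnl between iBAT and eWAT (-0.97, adjusted p = 0.0502) and changed no other call of the 9 genes. Wild type and ko mice shared only a replicate number. Deviations of same-numbered mice correlated with r of -0.465 to 0.551 over 9 pairs. With the replicate number as a block, 3 genes were called across tissues and 0 in eWAT, compared with 1 each. Across tissues, DESeq2 called 4 genes and counts summed per mouse 0. Against 0 in edgeR, DESeq2 called 13 genes in iBAT and 4 in iWAT, and 10 in eWAT against 1. Leaving out the 4 libraries leaves 1 ko library in iWAT, assumed to vary like the other groups, so that the 11 genes then called in iWAT and the 2 for the interaction are no replicated genotype result. It gave 1 gene in iBAT. Scaling to adipocyte markers gave 1 each in iBAT and iWAT, and no filter gave 1 in iWAT. The causes of these changes were not tested.

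Signs turned only in values that passed no test. Those of Fgf21 come from 0 to 13 counts and are no estimates, and its 5.71 in iBAT arose without wt replicate 1, when both wt libraries left had 0 counts. For Fgf21, log2 fold changes with the mouse as a block were -0.14 (iBAT against iWAT), -0.29 (iBAT against eWAT) and -0.14 (iWAT against eWAT), without the 4 libraries -0.13, -0.15 and -0.020, and with adipocyte scaling -0.015 and -0.039 in the last 2. Without the 4 libraries, Nampt was 0.044 in iWAT against eWAT. The genotype values were then -0.27 for Nrg4, -0.11 for Metrnl and -0.10 for Nampt in iWAT, with the lone ko replicate 3 against 2 wt libraries, and 0.19 for Adipoq, 0.24 for Lep, 0.012 for Retn, 0.31 for Rarres2, 0.41 for Nrg4 and 0.16 for Apln in eWAT. Summed per mouse, Adipoq was 0.023 and Nrg4 -0.0056. Rarres2 in iWAT was 0.0095 with the number block. Nrg4 in eWAT was 0.0021 with size factors, 0.0036 with no filter, 0.00017 with DESeq2 and 0.022 with adipocyte scaling. That scaling gave -0.0068 for Rarres2 and -0.027 for Nampt in iBAT and 0.057 for Adipoq in eWAT.

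Leaving out each library in turn, 0 to 1 of the 9 genes and 1080 to 2117 of all genes passed between iWAT and eWAT, and 0 to 1 genes between genotypes in iWAT and in eWAT. Fgf21 ranged from -0.84 to 0.80 (iBAT against iWAT), -0.84 to 0.58 (iBAT against eWAT) and -0.69 to 0.48 (iWAT against eWAT), and Nampt from -0.25 to 0.015 in the last. Between genotypes across tissues, Adipoq ranged from -0.17 to 0.0069, Rarres2 from -0.18 to 0.19 and Nrg4 from -0.071 to 0.16. In iBAT, Adipoq ranged from -0.21 to 0.077, Lep from -0.93 to 0.20, Retn from -0.66 to 0.48, Rarres2 from -0.033 to 0.090, Metrnl from -0.19 to 0.21, Fgf21 from -1.69 to 5.71, Apln from -0.50 to 0.17 and Nampt from -0.086 to 0.11. In iWAT, Adipoq ranged from -0.35 to 0.15, Retn from -0.51 to 0.11, Rarres2 from -0.61 to 0.73, Nrg4 from -0.34 to 0.30, Metrnl from -0.15 to 0.66, Fgf21 from -0.45 to 3.40, Apln from -0.78 to 0.51 and Nampt from -0.28 to 0.32. In eWAT, Adipoq ranged from -0.37 to 0.19, Lep from -0.64 to 0.24, Retn from -0.56 to 0.012, Rarres2 from -0.41 to 0.31, Nrg4 from -0.32 to 0.40, Fgf21 from -0.17 to 2.03 and Apln from -0.78 to 0.50.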
